A study of Mus musculus with 7 samples.

Results

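The step described here is the change in liver mRNA from the middle to the late night, measured as the ZT22 array minus the ZT18 array in log2, where zeitgeber time (ZT) counts hours from lights on. It was read over 12076 probe sets, out of 35556 on the array, that have 1 gene symbol and a mean over the arrays above 85 units on the natural scale. They represent 10966 genes, each followed on its probe set with the highest mean. The study profiled livers of male C57/BL6 mice on 7 arrays from ZT02 to ZT26, evenly spaced, of the type Affymetrix Mouse Gene 1.0 ST. All mice lived under 12 h of light and 12 h of darkness and had food only between ZT12 and ZT24 for 7 days, so that ZT18 and ZT22 both lie in the second part of the feeding phase. The labels give an age of 9 to 11 weeks in the sentence on the housing that came before this feeding schedule, so the mice were older when the livers were taken. The labels name no mutation and no drug for any group. Each array holds 1 pool of RNA from 5 mice, 500 ng from each, and there is 1 array per time point, hence no replicate at ZT18 or at ZT22. ZT26 repeats the clock hour of ZT02 with another pool, and the ZT26 minus ZT02 difference of the same probe sets served as the noise scale.

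Liver mRNA follows both the circadian clock and the feeding cycle. In the clock, the activators Arntl (Bmal1) and Clock drive E-box genes such as the Per and Cry repressors and the Rev-erb receptors Nr1d1 and Nr1d2, whose products later repress the activators, and the PAR bZip factors Dbp, Tef and Hlf carry the rhythm to output genes through D-boxes. Feeding brings insulin, which favours the synthesis of lipid, glycogen and protein, whereas its decline favours gluconeogenesis, FoxO targets and autophagy.

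The night step was small. Of the 10966 genes, 44 were at least 1.5-fold higher at ZT22 (0.401%) and 71 at least 1.5-fold lower (0.647%), together 115 genes or 1.05%. Between ZT26 and ZT02 78 genes (0.711%) passed this limit, 43 higher (0.392%) and 35 lower (0.319%). Counted as probe sets, 45 were higher at ZT22 (0.373%) and 80 lower (0.662%), together 125 (1.04%), and 80 (0.662%) passed in the noise pair. The SD of the step over probe sets was 0.169, close to the 0.165 of ZT26 minus ZT02, and the median step was 0 against 0.043. The excess over the noise pair lay among the better expressed probe sets. When the probe sets were split into 5 equal classes of mean level, in the highest class 29 probe sets passed 1.5-fold over the step and 9 between ZT26 and ZT02, whereas in the lowest class there were 12 and 22. Among the 115 genes, 109 had a step larger than their own ZT26 minus ZT02 difference, 41 of the 44 higher and 68 of the 71 lower genes. These genes were chosen for the size of the step, and 0.711% of all genes passed that size in the noise pair. A count near 115 therefore follows from the choice and is no support for the steps. Among the other intervals between neighbouring arrays the count of probe sets past 1.5-fold ranged from 106 (ZT22 to ZT26) to 452 (ZT10 to ZT14). For 876 genes the ZT18 and ZT22 values were equal. Just inside the 1.5-fold limit lay Gabarapl1 at 0.587 and Angptl8 at -0.586, and just outside it Clpx at 0.580 and Gpam at -0.583.

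**Figure D1:**
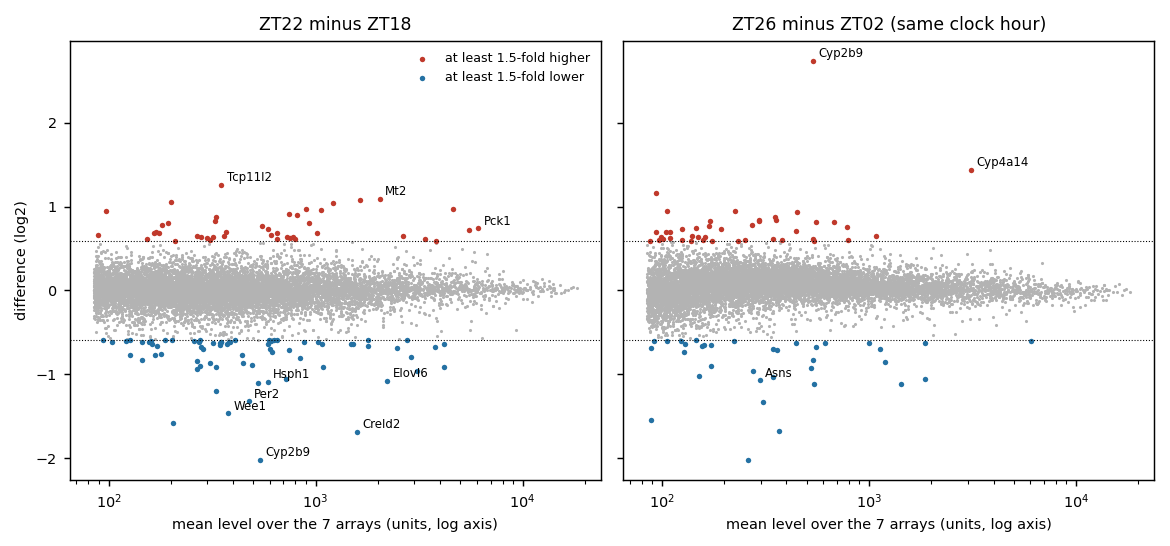
Differences between arrays in log2 (vertical axis) against the mean level over the 7 arrays in units (horizontal log axis), 1 point per gene, for ZT22 minus ZT18 on the left and for the noise pair ZT26 minus ZT02 on the right. Dotted lines mark 1.5-fold, which 44 genes passed upward and 71 downward over the step, against 78 in all for the noise pair, and Cyp2b9 is the lowest point on the left and the highest on the right.

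No gene passed the test of the step on the values as deposited. With limma, in which ZT02 and ZT26 formed the only group with more than 1 array, 0 of 12076 probe sets had an adjusted p under 0.05 (smallest adjusted p 0.661), while 873 had an unadjusted p under 0.05 and a spread taken from a cosine fit to all 7 arrays also gave 0. The count depended on the scaling, since after centring each array on the median of the tested probe sets limma called 297 probe sets, 130 higher and 167 lower, among them 117 of the 125 past 1.5-fold. In that fit the spread was wholly pooled over probe sets, so that Cyp2b9, with a difference of 2.74 between ZT02 and ZT26, had the smallest adjusted p, 1.65e-54. All genes named below are therefore described by their values and the noise pair, and none is called.

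Of 10 core clock repressors tested, 4 were at least 1.5-fold lower at ZT22 (Per2, Per3, Ciart and Nr1d2) and none higher, with a median step of -0.29, against a median of 0 over all genes and of -0.03 for the same genes between ZT26 and ZT02. Per2, a repressor of the Clock and Arntl dimer, measured in log2 units 7.08 at ZT02, 7.50 at ZT06, 9.21 at ZT10, 10.02 at ZT14, 9.78 at ZT18, 8.46 at ZT22 and 7.29 at ZT26. It was thus still near its highest array at ZT18 and 2.50-fold lower at ZT22. Per3 measured 6.24, 7.41, 9.59, 8.62, 8.02, 7.09 and 6.05 over the same arrays, which made it 1.92-fold lower at ZT22. Ciart (Chrono), another repressor of the dimer, was 7.67 at ZT18 and 6.81 at ZT22, from 9.77 at ZT10, and its second probe set gave a step of -1.05 against -0.86. Nr1d2 (Rev-erb beta) was 8.53 at ZT18 and 7.82 at ZT22, its lowest array.

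The remaining repressors stayed within 1.5-fold. Nr1d1 (Rev-erb alpha), at 7.21 at ZT18 and 7.51 at ZT22, was at the low end of a range that reached 11.60 at ZT06, and its step of 0.31 exceeded its noise difference of -0.20. Cry1, which peaks later than the Per genes, held 8.92 and 8.91, its highest pair of arrays. Cry2 had a step of -0.32, Bhlhe40 of -0.25, Per1 of -0.21 with a noise difference of -0.45, and Nfil3, a repressor of D-box genes, of 0.26. The activators were near their maximum. Arntl went from 8.48 to 8.81, with 8.96 at ZT02 and 8.94 at ZT26, Clock from 9.96 to 10.10, and Rora was at 9.69 on both arrays.

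Among the 8 clock output factors, Dbp was at least 1.5-fold lower (7.83 at ZT18 and 7.24 at ZT22, after 11.08 at ZT10), with Tef just short of it (8.87 and 8.30) and Hlf at 9.14 and 8.83. The noise differences of Dbp, Tef and Hlf were -0.29, 0.22 and 0.41, and that of Hlf was larger than its step of -0.31. Klf9, a glucocorticoid and clock controlled repressor, was the highest of the list with a step of 0.47. Klf10, Klf13, Klf15 and E2f8 had steps of -0.20, 0.06, -0.03 and -0.52. The E-box in Ciart and the D-box in Per3 are shown here because these windows hold matches. The windows of Dbp and Nr1d2, which were also lower, held neither element. Each window is the 250 bases before the transcription start from RefSeq (GRCm38.p6, chr3:95882229-95882478 and chr4:151044666-151044915, both on the minus strand, 5' to 3'), with CACGTG and TTATGTAA in capitals.
Ciart: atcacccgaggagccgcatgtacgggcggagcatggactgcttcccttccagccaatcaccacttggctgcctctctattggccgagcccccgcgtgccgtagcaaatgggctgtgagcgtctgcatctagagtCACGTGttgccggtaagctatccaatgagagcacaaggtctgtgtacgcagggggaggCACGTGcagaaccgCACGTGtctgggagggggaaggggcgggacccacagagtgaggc
Per3: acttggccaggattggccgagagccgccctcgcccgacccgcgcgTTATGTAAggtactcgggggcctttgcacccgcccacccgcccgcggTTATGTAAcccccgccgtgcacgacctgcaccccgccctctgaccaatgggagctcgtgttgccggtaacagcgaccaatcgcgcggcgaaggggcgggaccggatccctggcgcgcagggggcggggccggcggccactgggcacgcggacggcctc

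Ciart holds 3 E-boxes in this window and Per3 2 D-boxes. Over the genes past 1.5-fold with a window in the RefSeq promoter table, CACGTG was found in 7 of 53 lower genes (13.2%) and 2 of 33 higher genes (6.06%), where 10.2% of 8795 tested genes and 6.86% of all 27025 genes of the table hold it. The D-box forms TTATGTAA and TTACGTAA were each in 2 of the 53 lower genes (3.77%) and in none of the 33 higher genes, against 0.637% and 0.216% of the tested genes. The lower genes with a D-box were Per3 and Atp2b2 for the first form, and Homer2 and Ak4 for the second (named after their values were seen). Both strands were searched, the motifs are palindromes apart from TTATGTAA, and a match is no more than the letters.

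Other genes with a day profile like that of the repressors were among the lowest steps. Wee1, the kinase that holds cells before mitosis and a known clock target, measured 7.02, 7.16, 9.79, 9.40, 8.91, 7.45 and 7.25 from ZT02 to ZT26 and was 2.76-fold lower at ZT22. Noct (nocturnin, a night-phase phosphatase of NADP(H) first described as a deadenylase) was 8.74 and 8.12, and Nampt, the rate-limiting enzyme of NAD salvage, 10.29 and 9.67. Usp2, a deubiquitinase with a large daily range (6.66 at ZT02 and 10.72 at ZT10), was still at 9.40 at ZT18 and at 8.81 at ZT22. Plk3, a stress and cell cycle kinase, was 9.73 and 8.92. In the cell cycle list 2 of 13 genes were past 1.5-fold, both lower (Wee1 and Plk3), with 11 of 13 below 0 and a median of -0.14.

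**Figure D2:**
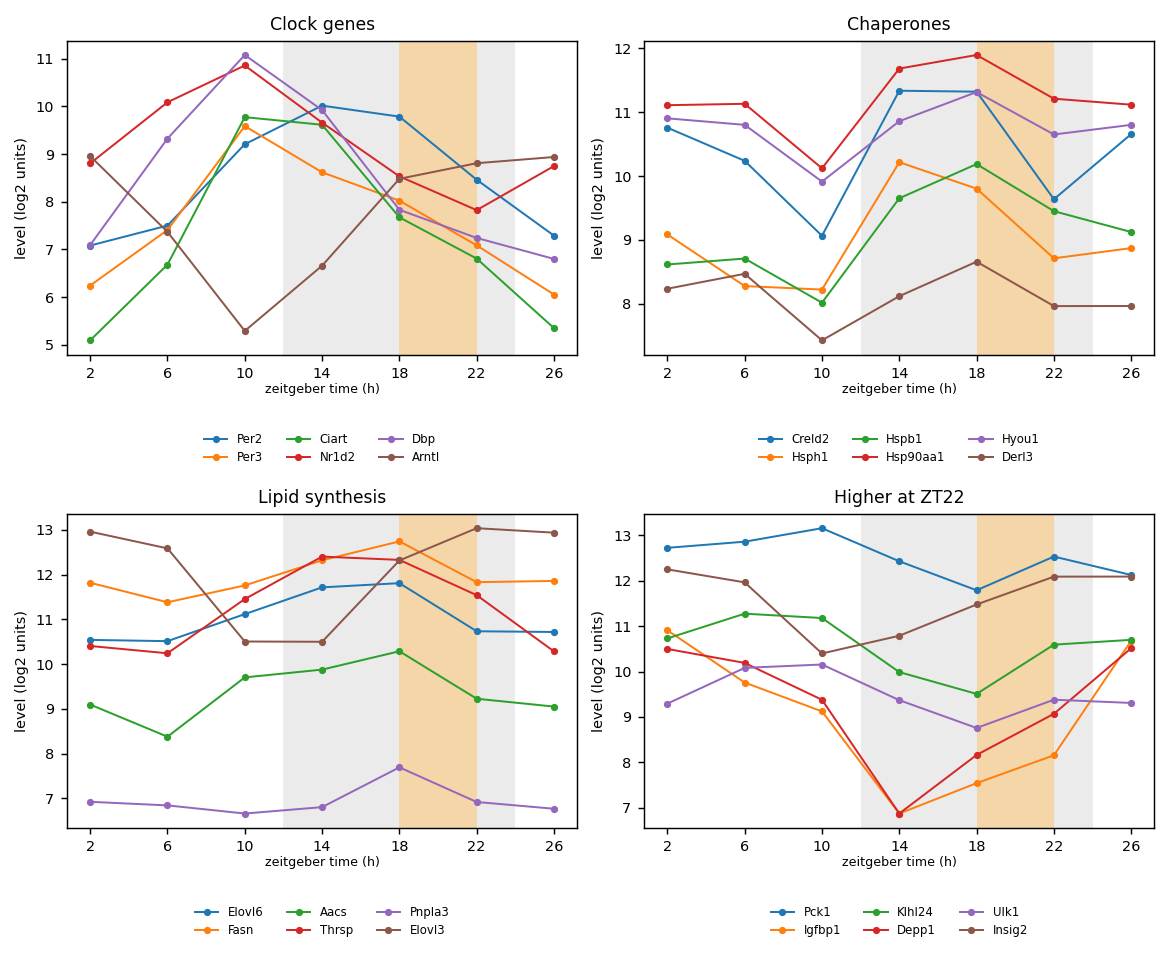
Levels in log2 units (vertical axes) on the 7 arrays by zeitgeber time in hours (horizontal axes), 1 line per gene and 1 array of pooled RNA per point, with the dark and feeding phase in grey and the step from ZT18 to ZT22 in orange. Genes at least 1.5-fold lower at the end of the orange band include Per2, Creld2 and Elovl6 (Per2 from 9.78 to 8.46, Creld2 from 11.32 to 9.64, Elovl6 from 11.81 to 10.73), while Arntl, Elovl3 and the genes of the last panel were higher.

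Heat shock chaperones had the lowest median step of the functional lists. Of 20 heat shock chaperones and cochaperones tested, 7 were at least 1.5-fold lower at ZT22 and none higher, 18 lay below 0, and the median was -0.37, where the same genes had a median of -0.03 and none past 1.5-fold between ZT26 and ZT02. Over all genes 44.1% lay below 0. Hsph1 (Hsp110, a nucleotide exchange factor of Hsp70) measured 9.09, 8.28, 8.22, 10.22, 9.80, 8.71 and 8.87 from ZT02 to ZT26, so that its high arrays were the first pair of the night and ZT22 was 2.13-fold below ZT18. Hsp90aa1, the inducible cytosolic Hsp90, was 11.90 at ZT18 and 11.21 at ZT22, with 11.11 at ZT02 and 11.12 at ZT26, and its other probe sets gave -0.68 and -0.69. Hspb1 (Hsp25) was 10.19 and 9.45, with a noise difference of 0.51, and the Hsp90 cochaperones Chordc1 and Stip1 and the Hsp110 member Hspa4l had steps of -0.64, -0.64 and -0.62.

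Other chaperones of the list stayed within 1.5-fold. Hspa8 (Hsc70) had a step of -0.48, Hspa1a (inducible Hsp70) of -0.38, Dnaja1 of -0.36 (-0.55 on its other probe set), and the mitochondrial pair Hspd1 and Hspe1 of -0.06 and -0.18. The seventh lower gene of the list, Fkbp5, is a cochaperone of steroid receptors and also belongs to the glucocorticoid list. The window before Hspb1 (chr5:135887669-135887918, plus strand, GRCm38.p6, RefSeq) is shown because it carries the core of the heat shock element, GAANNTTC, at 2 places in capitals.
Hspb1: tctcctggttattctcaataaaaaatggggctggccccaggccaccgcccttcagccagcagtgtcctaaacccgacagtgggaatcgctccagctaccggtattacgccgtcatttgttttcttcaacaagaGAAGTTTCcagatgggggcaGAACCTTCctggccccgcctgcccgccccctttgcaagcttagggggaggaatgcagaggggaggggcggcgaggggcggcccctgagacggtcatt

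The core was found in 4 of 53 lower genes (7.55%) and in 6 of 33 higher genes (18.2%), against 6.17% of the tested genes, a share that was higher in the higher genes. In the lower set its holders were Hspb1, Rcan1, Cdca7 and Igfbp5.

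Of 26 genes of folding and stress in the endoplasmic reticulum (ER) 5 were at least 1.5-fold lower and none higher, 22 lay below 0, and the median step was -0.23, against -0.09 for the noise pair. Creld2, a secreted and ER-resident factor induced by unfolded protein, had the second most negative step of all genes and measured 10.76, 10.24, 9.06, 11.34, 11.32, 9.64 and 10.66 from ZT02 to ZT26. ZT22 was 3.22-fold below ZT18, and the ZT02 and ZT26 arrays, 0.10 apart, were both above ZT22. Manf, an ER stress-inducible survival factor, had the same shape with 8.71, 8.10 and 8.60 at ZT18, ZT22 and ZT26. Hyou1 (Grp170) was 11.32 and 10.65, Derl3, which serves retrotranslocation, 8.66 and 7.96, and Syvn1 (Hrd1, the ubiquitin ligase of ER-associated degradation) 10.40 and 9.76. Hspa5 (BiP) had a step of -0.57 and Sec23b, of the COPII coat, of -0.56, whereas Calr, Canx and Pdia3 had steps of 0.00, -0.02 and -0.06. Xbp1 and the sensors Atf6 and Ern1 lay at -0.12, -0.15 and 0.06. The proteasome list had none of 19 genes past 1.5-fold and a median of 0.003.

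Of 19 fatty acid synthesis genes, 4 were at least 1.5-fold lower at ZT22 and 1 higher, with 12 below 0, 7 above 0 and a median of -0.12. Elovl6, the elongase of palmitate, measured 10.54, 10.51, 11.12, 11.72, 11.81, 10.73 and 10.72 from ZT02 to ZT26. Fasn, fatty acid synthase, measured 11.82, 11.38, 11.76, 12.32, 12.74, 11.83 and 11.86. In both, ZT18 was the highest array and ZT22 was back at the level of ZT02 and ZT26, 2.11-fold and 1.88-fold lower. Thrsp (Spot 14), a lipogenic coactivator, was 12.33 and 11.54, and Pnpla3, a lipid droplet acyltransferase and lipase induced by Srebf1, 7.69 and 6.92.

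The members of the pathway differed in size and direction. Acaca, which makes malonyl-CoA, had a step of -0.47, Acly of -0.22, Srebf1 of -0.21, Me1 of 0.05 and Scd1 of 0.00. The 1 gene that was higher, Elovl3, an elongase of very long chains with a large daily range, was at 12.32 and 13.04, after 10.50 at ZT14. Aacs, which activates acetoacetate for lipid synthesis, was 2.09-fold lower (10.29 and 9.23). Among 17 triglyceride and lipid droplet genes 13 lay below 0 and G0s2, the inhibitor of adipose triglyceride lipase, was past 1.5-fold (9.41 and 8.54), with Gpam, the first acyltransferase, at -0.58 and the lipase Pnpla2 at 0.31. Angptl8, a feeding-induced inhibitor of lipoprotein lipase, was 11.46 and 10.88, while Lpl, the lipoprotein lipase, was 7.22 and 7.81 with a noise difference of -0.32.

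Genes of fatty acid oxidation gave a list in which the noise pair was not quiet. Of 26 genes 5 were at least 1.5-fold lower at ZT22 and 22 lay below 0 (median -0.08), but 4 of the 26 were past 1.5-fold between ZT26 and ZT02. Acot3, a peroxisomal thioesterase, had the largest step of these and measured 6.48, 6.11, 8.90, 8.36, 8.15, 6.56 and 6.48 from ZT02 to ZT26, with a step of -1.59 and a noise difference of 0.00. Acot4 had -0.60 with 0.22, whereas Acot1 (-0.77 with 0.77), Cyp4a14 (-0.96 with 1.44) and Vnn1 (-0.91 with 0.65) had noise differences comparable to their steps, and all of these are known targets of Ppara. The Acot genes are close paralogs, and how far their probes are shared was not tested. The enzymes of the mitochondrial cycle were flat, with Cpt1a at -0.02, Acadm at -0.03, Hadha at -0.08 and Acadvl at 0.09. Cyp2b9, the largest step of all at -2.02 (10.48 and 8.46), differed by 2.74 between ZT02 and ZT26, so its step was within its own noise.

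In cholesterol and bile acid metabolism single steps stood out rather than lists. None of 18 cholesterol synthesis genes passed 1.5-fold (median 0.014), the widest being Mvd at -0.50 and Nsdhl at 0.31. Insig2, which retains the Srebp complex in the ER, was 11.48 and 12.09. A probe set of Insig1 went the other way, with a step of -0.46 after centring the arrays on their median. Of the 6 tested genes of the sterol sensing list 3 lay above 0 and 3 below 0, with a median of 0.046. In the bile acid list, with 18 genes and a median of 0.035, Cyp7a1, the cholesterol 7-alpha-hydroxylase that opens bile acid synthesis, measured 11.26, 11.34, 12.10, 12.52, 12.37, 11.69 and 11.26 from ZT02 to ZT26. It was 1.60-fold lower at ZT22 with a noise difference of 0.01. Abcg8, which with Abcg5 exports sterols into bile, measured 10.17, 10.54, 11.08, 10.17, 8.85, 9.90 and 10.10. ZT18 was its lowest array and ZT22 2.06-fold higher, and Abcg5 had the same direction (10.46 and 10.84). Nr0b2 (Shp), a repressor of Cyp7a1, had a step of 0.48, and Hsd3b7, a later enzyme of the pathway, of 0.56.

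Several genes associated with fasting and low insulin were higher at ZT22, although food was available at both times. Pck1, the gluconeogenic PEPCK, measured 12.72, 12.86, 13.15, 12.43, 11.79, 12.53 and 12.12 from ZT02 to ZT26, lowest at ZT18 and 1.67-fold higher at ZT22, but its noise difference of -0.60 was almost as large. Igfbp1, a FoxO target that binds IGF, went from 6.87 at ZT14 to 7.54 and 8.16, on the way to 10.68 at ZT26. Depp1, also a FoxO target, went from 6.87 at ZT14 to 8.16 and 9.07 and reached 10.51 at ZT26, with a noise difference of 0.02. Both were thus higher on each successive array from ZT14 to ZT26. Irs2, the insulin receptor substrate, had a step of 0.43 with a noise difference of -0.42, and G6pc, glucose-6-phosphatase, of 0.10. The FoxO list as a whole had 1 of 17 genes past 1.5-fold and a median of 0.07, and the gluconeogenesis list 1 of 13 and 0.004. In the FoxO list 10 genes lay above 0 and 7 below 0, with a lowest step of -0.343. In the gluconeogenesis list 7 lay above 0 and 5 below 0, with a lowest step of -0.488. Gys2, liver glycogen synthase, was 12.18 and 11.54, 1.55-fold lower with a noise difference of 0.08. It was the only 1 of 13 glycogen genes past 1.5-fold. In that list 8 genes lay above 0 and 5 below 0, with a median of 0.014 and a highest step of 0.496.

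Of 17 autophagy genes, 2 were at least 1.5-fold higher and none lower, and 11 lay above 0 (median 0.097). Ulk1, the kinase that starts autophagy, measured 9.29, 10.08, 10.15, 9.37, 8.76, 9.38 and 9.31 from ZT02 to ZT26, and Gabarapl1, an Atg8 protein of the autophagosome, 12.05, 12.29, 12.26, 11.59, 11.10, 11.68 and 11.93. Each was lowest at ZT18, as were Klhl24 (9.51 against 9.99 to 11.27 elsewhere), an adaptor of a ubiquitin ligase, Casp6 (8.67), an effector caspase, and Tcp11l2 (7.18). Tcp11l2 was the largest step upward, with 8.79, 8.94, 8.67, 7.24, 7.18, 8.44 and 8.89, thus low on the first pair of night arrays and 2.40-fold higher at ZT22. Slc8b1, the mitochondrial sodium and calcium exchanger, went from 9.07 to 10.03.

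Glucocorticoid-responsive genes did not share a direction. Of 14 genes 2 were higher and 1 lower. Zbtb16 (Plzf) measured 9.05, 9.17, 9.63, 10.16, 9.18, 10.08 and 8.99, hence 2 separate high arrays at ZT14 and ZT22, with a noise difference of -0.06. Mt2, a metallothionein, was at 10.51 and 11.61 with a noise difference of -0.54, while Mt1 had a step of 0.21. Fkbp5 was lower (8.37 and 7.74, after 9.62 at ZT14), and Sgk1 and Tsc22d3 had steps of 0.45 and -0.28. Egr1, an immediate early factor, went from 6.23 at ZT14 to 7.02 and 7.90 and stood at 9.40 at ZT26, alone in its list of 16 genes in passing 1.5-fold.

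Other large steps came from genes outside the lists described so far, some of them members of further lists. Rnf125, a ubiquitin ligase, measured 12.86, 12.29, 11.46, 10.03, 11.57, 12.54 and 12.77 from ZT02 to ZT26. Loxl4, a lysyl oxidase, was 7.03 and 8.09, with a second probe set at 1.04 and a noise difference of 0.39, and Serpinb1a, an inhibitor of neutrophil proteases, was 5.91 and 6.86, with 0.38. On the lower side, Rcan1, the calcineurin inhibitor, was 9.60 and 8.49 after 10.27 at ZT14, and Slc16a5, a monocarboxylate carrier, 9.29 and 8.09. Tfrc, the transferrin receptor, was 8.74 and 7.90, and Hamp2, a hepcidin paralog, 9.20 and 8.61. The iron list thus had 2 of 17 genes at least 1.5-fold lower and none higher, where 0.647% of all genes were lower. As a whole that list was balanced, with 8 genes above 0, 8 below 0 and a median of 0. Cirbp, a cold-inducible RNA-binding protein, was 7.54 and 8.18, close to its 7.52 at ZT14 and its 8.18 at ZT02. Asns, asparagine synthetase, was 7.69 and 8.32, but differed by -1.07 between ZT26 and ZT02, and Saa1, an acute phase protein, 5.55 and 6.21 with -1.54.

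Fabp7, a fatty acid binding protein whose liver mRNA is rhythmic, went from 7.87 to 8.70 (noise difference 0.52). Its promoter window (chr10:57784673-57784922, plus strand, GRCm38.p6, RefSeq) is shown because it was 1 of 2 higher genes, with Cxcl13, that hold the ROR element TAGGTCA (in capitals, read on the opposite strand), the site shared by Ror activators and Rev-erb repressors.
Fabp7: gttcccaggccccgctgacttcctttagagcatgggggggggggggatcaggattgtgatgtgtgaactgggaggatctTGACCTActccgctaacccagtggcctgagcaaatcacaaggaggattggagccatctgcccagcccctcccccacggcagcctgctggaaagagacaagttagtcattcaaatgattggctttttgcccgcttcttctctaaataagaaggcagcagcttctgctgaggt

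The element was in 2 of 33 higher genes (6.06%) and none of 53 lower genes, against 2.3% of the tested genes. Of the other motifs searched, the sterol response element core TCACCCCAC was in 3 of 33 higher genes (9.09%, Camk1d, Fbxl20 and Syt1) and none of the lower genes, where 0.671% of tested genes hold it. None of these 3 is a sterol synthesis gene. The cAMP response element TGACGTCA was in 2 lower genes (3.77%, against 2.91%) and the forkhead element GTAAACA in 3 (5.66%, against 2.91%), and neither was found in the higher genes.

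Large functional classes stayed within 1.5-fold. None of 24 oxidative phosphorylation genes, 23 cytosolic ribosomal proteins, 21 secreted plasma proteins, 15 genes of the Nrf2 list, 18 of amino acid breakdown, 10 of glycolysis or 9 of the methionine cycle passed 1.5-fold, and their medians lay between -0.038 and 0.027. Ribosome biogenesis had no gene past 1.5-fold either, but 24 of its 30 genes lay below 0 (median -0.081), with Myc at -0.53 and Wdr12 at -0.35. The noise pair gave this list a median of 0.089. The interferon list had none of 16 past 1.5-fold over the step (median -0.118), while between ZT26 and ZT02 8 of the 16 were past it with a median of 0.514. Over the 37 functional lists, 49 of 568 tested genes were past 1.5-fold, where 1.05% of all 10966 genes were. The lists were written with earlier results of these data known, so this share is a description only.

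**Figure D3:**
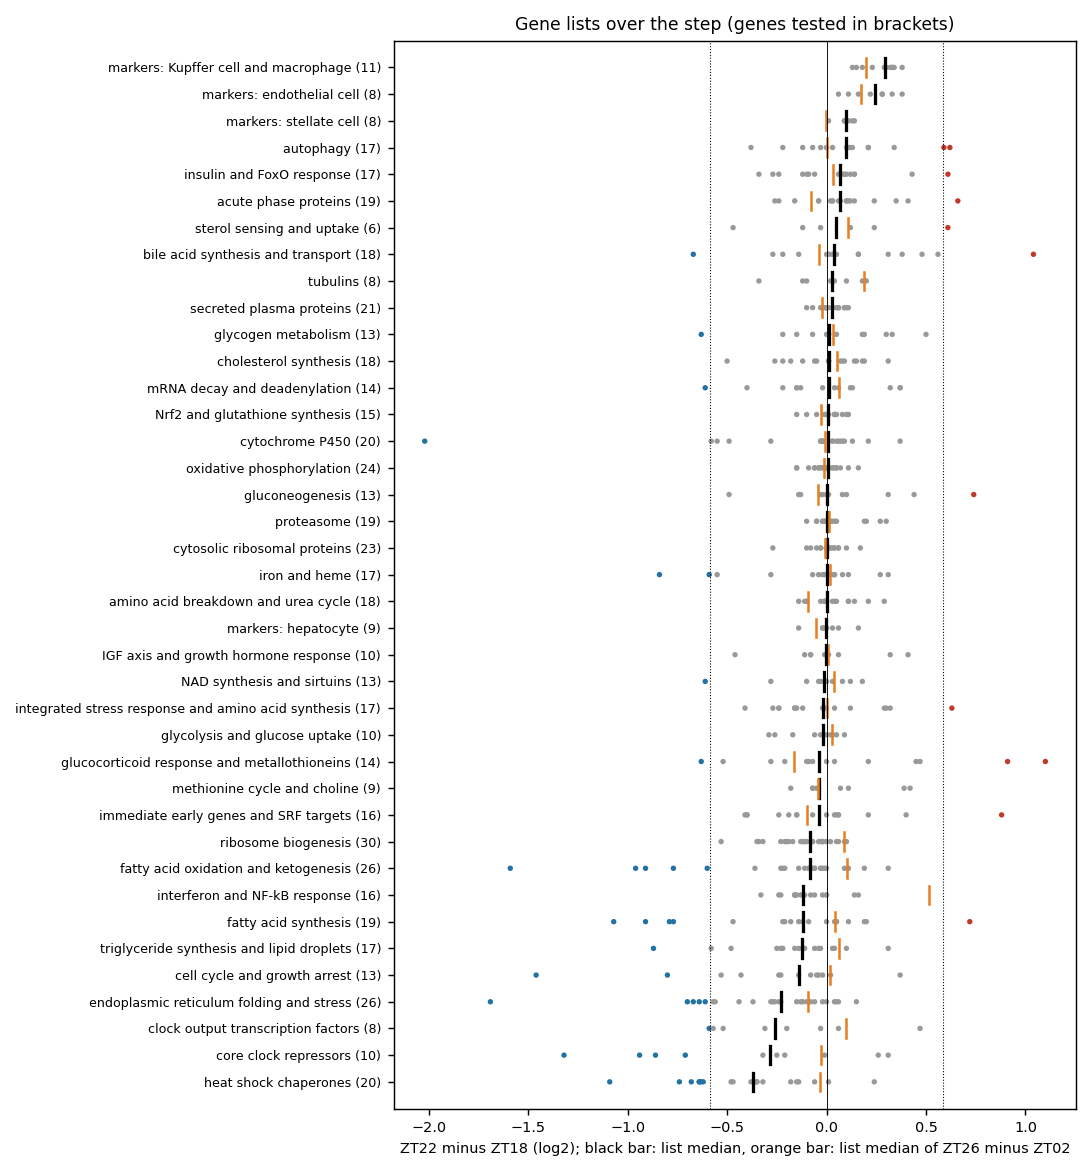
Steps in log2 (horizontal axis) of the tested genes of each list with 5 or more genes (rows, number of genes in brackets), 1 point per gene, blue when at least 1.5-fold lower at ZT22 and red when at least 1.5-fold higher, with the list median in black and the median of ZT26 minus ZT02 in orange. Heat shock chaperones have the lowest median (-0.37) and Kupffer cell markers the highest (0.30), and the orange bar of the interferon list lies at 0.51.

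The arrays are of whole liver, and markers of other cells differed slightly between the arrays. Of 11 Kupffer cell and macrophage markers, 11 were higher at ZT22 by 0.13 to 0.38 (median 0.30), as were 8 of 8 endothelial markers (0.06 to 0.38, median 0.25) and 8 of 8 stellate markers (0.01 to 0.14), where 47.9% of all genes were higher. None reached 1.5-fold. The summed level of the Kupffer list was 7508 units at ZT18 and 9104 at ZT22, within 5941 to 9318 over the 7 arrays, and that of the endothelial list 6496 and 7861, within 6113 to 7861. In the noise pair the medians of these lists were 0.20 and 0.17. The 9 hepatocyte markers, Alb among them at 14.02 on both arrays, summed to 114400 and 114200 units. No neutrophil or adipose marker was above 85 units with 1 symbol. Globin probe sets, which carry several symbols and so lie outside the tested set, were higher at ZT22 by 0.89 (Hba) to 0.96 (Hbb), while Alas2, the tested red blood cell marker, had a step of 0.12 and a noise difference of -0.26. Among the higher genes, H2-Ab1 (9.39 and 10.03) encodes a class II chain of antigen-presenting cells, and Cxcl13 (8.66 and 9.36) a chemokine. In pooled tissue, more cells of a type and more RNA per cell cannot be told apart, and their part in the higher genes was not tested.

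The step was then set beside arrays that it does not use. From ZT14 to the mean of ZT02 and ZT26, which brackets the step, 30 of the 44 higher genes were at least 1.5-fold higher and 2 lower, where 3.61% of all genes were higher. Of the 71 lower genes 44 were at least 1.5-fold lower and 1 higher, where 2.56% of all genes were lower. The 2 exceptions among the higher genes were Mt2 (-0.71) and Zbtb16 (-1.14), and that among the lower genes was Chrna4 (0.90). At ZT22 the level was within 1.5-fold of the mean of ZT02 and ZT26 in 38 of the 44 higher and 61 of the 71 lower genes, against 10902 of all 10966 genes. Depp1, Igfbp1 and Egr1 were among those still below it, and Per2, Per3, Ciart, Usp2 and Thrsp among those still above. By limma 0 probe sets passed an adjusted p of 0.05 in this comparison (smallest 0.26, and 2116 with an unadjusted p under 0.05), and the cosine spread gave 322. That count fell to 6 without the ZT02 array and to 9 without the ZT26 array, and it was 155 without ZT06 and 133 without ZT22.

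Among the 71 lower genes the highest array was ZT18 in 33, ZT14 in 22 and ZT10 in 15, the last including Per3, Ciart, Nr1d2 and Dbp. Over all 10966 genes these arrays were the highest in 1480, 1996 and 1984. Among the 44 higher genes the lowest array was ZT18 in 17, such as Pck1, Ulk1 and Abcg8, and ZT14 in 16, such as Depp1 and Igfbp1, where over all genes it was ZT18 in 1580 and ZT14 in 1943. The sets were chosen on ZT18 and ZT22, which favours ZT18 as the extreme array, so these counts are descriptions. In medians of the bracket, heat shock chaperones stood at -0.57 and clock repressors at -1.28, whereas the ER list, at -0.01, was as high on the ZT02 and ZT26 arrays as at ZT14.

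The light step from ZT10 minus ZT06, which shares no array with the night step, ran against it for many of these genes. Of the 71 lower genes 33 were at least 1.5-fold higher at ZT10 (1.6% of all genes) and 7 lower, and of the 44 higher genes 13 were lower (1.49% of all genes) and 2 higher. The opposed genes included Acot3 (2.79 in the light and -1.59 at night), Wee1 (2.64 and -1.46), Per2 (1.71 and -1.32), Elovl3 (-2.08 and 0.72) and Insig2 (-1.56 and 0.61). Some chaperones were lower on both steps, with differences of -1.18 in the light and -1.69 at night for Creld2 and of -1.01 and -0.68 for Hsp90aa1. The difference between the steps, tested with limma, gave 0 probe sets past an adjusted p of 0.05 (smallest 0.49, 1217 unadjusted). With the cosine spread in place of that of limma, the 1 probe set called was that of Cyp7a1 (difference -1.43). It was not called without the ZT02, ZT14 or ZT26 array.

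**Figure D4:**
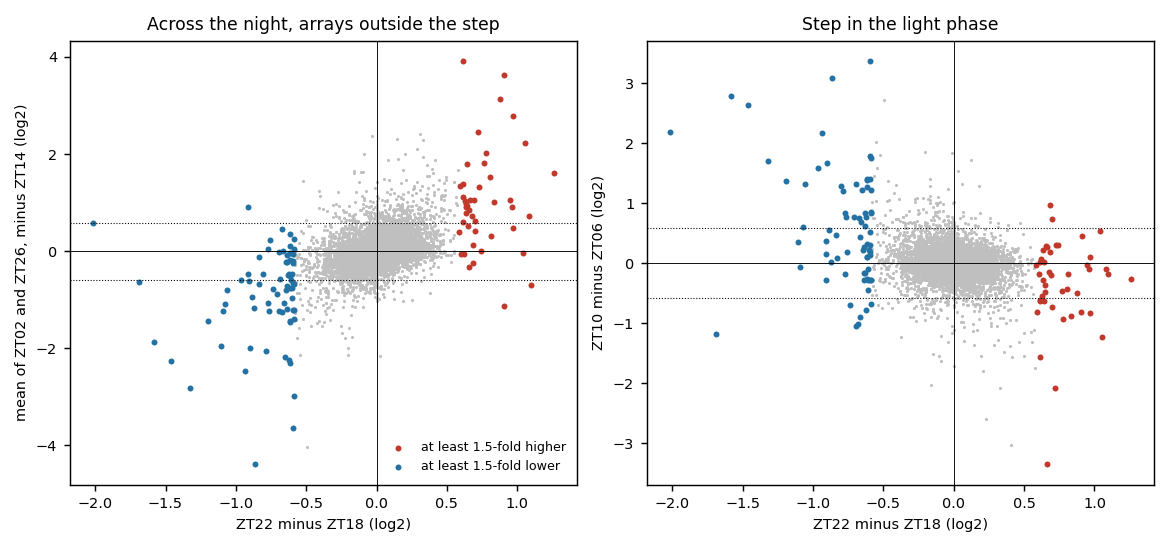
The step ZT22 minus ZT18 in log2 (horizontal axes) against the mean of ZT02 and ZT26 minus ZT14 (left) and against ZT10 minus ZT06 (right), both in log2 and from arrays outside the step, 1 point per gene. On the left 30 of 44 genes higher at ZT22 (red) lie above the upper dotted line of 1.5-fold and 44 of 71 lower genes (blue) below the lower one, and on the right 33 blue points lie above the upper line.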

How the data were processed

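Liver RNA of 7 time points, 1 array and 1 pool of 5 mice each, was analysed from the deposited log2 values of 35556 probe sets, which the authors produced by RMA in Expression Console (Affymetrix, 1.1.2637.26569 per the submitters' processing notes), so that background correction, quantile normalization and probe summary preceded deposit. RMA compresses small signals, and differences of dim genes are understated. Platform annotation gave 1 symbol to 21789 probe sets, several to 1621 and none to 12146. Of those with 1 symbol, 12076 had a mean above 85 units, the minimum in the study's methods, and were tested with limma 3.58.1 in R 4.3.3 (lmFit with 6 clock times, ZT02 and ZT26 as 1 group, eBayes with trend, Benjamini-Hochberg adjustment). The group of ZT02 and ZT26 leaves 1 residual degree of freedom, and the p-values assume that ZT18 and ZT22 vary like that pair. Array medians were 6.37 to 6.40 and mean correlations 0.991 to 0.993. The number of arrays limits the precision.

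Named genes were the 12 largest steps each way among those past 1.5-fold (none being called), all members of the 3 clock lists, and up to 4 members past 1.5-fold of each other list, or else the 2 largest. Others were named after their values were seen. The step, the 37 gene lists (649 different genes, some in more than 1 list, 568 tested), 12 marker lists and tests were chosen with earlier results of these data known. Promoter windows of 250 bases came from RefSeq. The fit was tested on simulated data. Alternatives changed the eBayes options, spread, scaling, level minimum, fold and arrays. The Pol II and histone sequencing was not analysed here.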

Additional observations from a re-analysis of the deposited data

How the results depend on the processing

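The 0 calls of limma for the step held without the trend, with robust eBayes, with the cosine spread, after quantile normalization anew and at all 3 other level limits (none, 43 and 170 units), but not after centring arrays on the median, which gave 297. There the prior degrees of freedom were infinite instead of 0.814. After quantile normalization anew they were 4.39, so the pooling of the spread depended on the scaling there as well. For the night step against the light step the cosine spread gave 1, new quantile normalization 149 and centring 758 instead of 0, and for the arrays on either side of the step 322, 1247 and 2275.

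The 125 probe sets past 1.5-fold (45 higher and 80 lower) became 17 at 2-fold (6 and 11), 214 past the 99th percentile of the noise pair at like level (77 and 137), and, without a level limit, 68 higher. Requiring also a step beyond the probe set's own ZT26 minus ZT02 difference, a setting chosen after seeing the data, left 119. The 369 recomputed values of named genes and list medians moved by at most 0.046, less than the noise SD of 0.165, and none changed direction past 1.5-fold. For single genes only the scaling was varied. RMA had already quantile normalized the values, and centring moves all genes of an array alike. Little movement could therefore arise, and its absence is no support for the values. No paired analysis was possible because each time point has 1 array.

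Arrays were also left out 1 at a time, a setting chosen after seeing the data. ZT18 and ZT22 make up the step and had to stay for it, and in limma the fit without ZT02 or ZT26 has no residual degree of freedom and was replaced by the cosine spread. In limma any other array outside a contrast adds nothing to the residual spread, so leaving it out could hardly change the result. The 0 of limma in these fits was therefore fixed beforehand and is no support. The step gave 0 calls in each of these fits (limma without ZT06, ZT10 or ZT14, and the cosine spread without any 1 of the other 5 arrays). The night step against the light step also gave 0 throughout. For the arrays on either side of the step limma gave 0 in each fit and the cosine spread gave 6 without ZT02, 155 without ZT06, 319 without ZT10, 305 without ZT18, 133 without ZT22 and 9 without ZT26.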

Other observations

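Probe sets with several symbols were not tested, but some had steps as large as those described. A probe set shared by Cdkn1a, the p21 inhibitor of cyclin-dependent kinases, and 4930567H12Rik measured 7.76, 6.66, 5.78, 6.84, 7.95, 9.41 and 8.26 from ZT02 to ZT26, with its highest array at ZT22, a step of 1.45 and a noise difference of 0.51. Probe sets shared by Actb and Actg1, the cytoplasmic actins, were highest at ZT18 and had steps of -0.98, -0.94, -0.86 and -0.59, with noise differences of 0.00 to 0.10. Those of the acetyltransferases Nat8f6, Nat8f7 and Nat8f3 had steps of -0.86, -0.72 and -0.59, and those of Unc93a and Unc93a2 of 0.70 and 0.67. In all, 8 of 833 such probe sets above 85 units were at least 1.5-fold higher and 7 lower (1.8%), against 6 in the noise pair.

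Unnamed probe sets above 85 units were noisier than named ones, with 99 of 4774 at least 1.5-fold higher over the step and 136 lower (4.92%) and 348 between ZT26 and ZT02 (7.29%). Below the level limit 23 of 9713 probe sets with 1 symbol were higher by this fold and 20 lower (0.443%), against 107 in the noise pair (1.1%).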
